A study of Mus musculus with 8 samples.

Results

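Histone genes were followed in mouse skin 24 h after a single high dose of radiation. The genes were chosen by symbol: the 68 rows of the expression table whose symbol starts with Hist1h, Hist2h, Hist3h or Hist4h are the replication-dependent histone genes, and H2afx, H2afz, H2afv, H2afy, H2afy2, H2afj, H3f3a, H3f3b, H1f0 and H1fx are the 10 replacement genes. Together they are 78 of the 22564 genes of the table; Cenpa, the centromeric H3, was not taken. The replication-dependent genes comprise 6 H1, 19 H2A, 18 H2B, 12 H3 and 13 H4 genes, and 55 of them lie in the Hist1 cluster, 10 in Hist2, 2 in Hist3 and 1 in Hist4. The irradiated group is skin of male C57Bl/6 mice, 4 weeks old, from an area given 35 Gy of 6 MeV electrons at 750 cGy per min. The nonirradiated group is skin of the same strain, also 4 weeks old and labelled with the 24 h time, that received no dose. Each group has 4 libraries, made with a stranded kit from total RNA after removal of ribosomal RNA, so that RNA without a poly(A) tail is kept. The labels do not say that the libraries come from separate mice, and p-values here therefore cover only the library-to-library spread, which may be technical.

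Histones package DNA into nucleosomes, each with a core of H2A, H2B, H3 and H4, while the linker histone H1 binds where DNA enters and leaves. Replication-dependent histone genes are mostly transcribed in S phase, when new DNA has to be packaged, and most have no introns. Their mRNA normally ends in a conserved stem-loop instead of a poly(A) tail, and the stem-loop binding protein encoded by Slbp recognises it. Replacement variants such as H3.3 (H3f3a and H3f3b) and H2A.Z (H2afz, H2afv) are made throughout the cell cycle from polyadenylated mRNA and are placed in chromatin outside replication as well.

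The stem-loop is a sequence mark of the replication-dependent set, and it is shown here for members that come up in the results. The annotated GENCODE M21 transcripts (build GRCm38, the assembly also called mm10) were searched on the transcript strand only for GG, any 2 bases, CTTTT, any base, AG, any 2 bases and CC, which is 16 bases in a row. The 16 bases of the stem-loop are in capitals, with up to 5 bases on either side, written in DNA letters in the direction of the mRNA.
Hist1h1e: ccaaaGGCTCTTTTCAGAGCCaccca
Hist1h2bg: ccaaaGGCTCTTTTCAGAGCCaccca
Hist1h3a: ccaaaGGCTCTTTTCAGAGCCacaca
Hist1h4f: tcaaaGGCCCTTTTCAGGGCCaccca
Hist1h4j: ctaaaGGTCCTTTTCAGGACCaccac
H2afx: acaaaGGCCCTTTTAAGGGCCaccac
They lie at chr13:23621777-23621802 (minus strand), chr13:23571838-23571863 (plus), chr13:23761885-23761910 (minus), chr13:23551286-23551311 (minus), chr13:21735432-21735457 (plus) and chr9:44335235-44335260 (plus), in the same order. The motif was found in 44 of the 67 replication-dependent members with an annotated coding transcript (65.7%), in 1 of the 10 replacement genes, H2afx, and in 72 of 21842 protein-coding genes of the annotation (0.33%). The pairing arms of the stem differ by class. All 25 matches in H1, H2A and H2B genes and all 8 in H3 genes begin GGCTC, while 9 H4 genes begin GGCCC and 2, Hist1h4b and Hist1h4j, begin GGTCC. No match means only that these letters are not in the annotated transcript, which for some members stops at the end of the coding part.

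Many H2A and H2B genes sit head to head and share the stretch between their start sites. Among the members, 10 such pairs lie within 300 bases of each other. The stretches of 2 pairs are printed on the plus strand of GRCm38.p6, from RefSeq, because their genes come up below, with the CCAAT box (CCAAT on either strand, so also ATTGG), the octamer (ATTTGCAT, either strand) and TATAAA (either strand) in capitals.
Hist1h2ak and Hist1h2bn: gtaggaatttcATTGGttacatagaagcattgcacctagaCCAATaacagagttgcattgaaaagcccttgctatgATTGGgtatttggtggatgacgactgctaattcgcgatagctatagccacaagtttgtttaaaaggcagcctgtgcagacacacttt
Hist1h2ae and Hist1h2bg: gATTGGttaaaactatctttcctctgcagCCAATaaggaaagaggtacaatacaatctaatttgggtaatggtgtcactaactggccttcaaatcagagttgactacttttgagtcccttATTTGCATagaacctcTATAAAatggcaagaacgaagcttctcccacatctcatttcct
The first stretch (chr13:21753913-21754075, 163 bases) holds 3 CCAAT boxes, and the second (chr13:23571221-23571399, 179 bases) holds 2, with 1 octamer and 1 TATAAA. Promoter windows from 250 bases before to 50 after the start were found in RefSeq for 62 replication-dependent and 9 replacement members. CCAAT was present in all 6 H1, 18 H2A, 17 H2B and 10 H3 windows, in 3 of 12 H4 windows, in 6 of 9 replacement windows and in 37.4% of the 32851 windows of the table. The octamer was in 7 of the 18 H2A and 7 of the 17 H2B windows against 1.74% of all windows, and AAACACA, the H1 box (either strand), in 5 of the 6 H1 windows against 7.18% of all.

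Libraries differed in how many genes they caught. The deposited estimated counts totalled between 5.94e+06 and 6.12e+06 in irradiated and between 5.32e+06 and 6.64e+06 in nonirradiated libraries. Irradiated libraries detected fewer genes, 9089 to 12721 of 22564, against 12354 to 14447 in nonirradiated libraries, where detected means an estimated count of at least 0.5. Genes seen in only 1 library had a median of 19 to 61 reads in irradiated and 5 to 14 in nonirradiated libraries. These reads are many copies of few molecules if each such gene was caught about once, so that median is used below as a rough size of 1 fragment. A level below about 4.501 to 12.8 FPKM (the size of 1 fragment for the median replication-dependent member) could therefore be missed in an irradiated library by chance of sampling. FPKM are fragments per kilobase of transcript, scaled by how many fragments of the library were mapped.

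The question addressed is how the mRNA of the 2 sets of histone genes compared between irradiated and nonirradiated skin. The summed level of the replication-dependent genes was 486, 343, 411 and 283 FPKM in irradiated libraries 1 to 4, against 1133, 1165, 782 and 879 FPKM in nonirradiated libraries 1 to 4. Every irradiated library lay below every nonirradiated one, with means of 381 ± 87.6 FPKM in irradiated and 990 ± 189 FPKM in nonirradiated skin (SD, n = 4 each), a log2 ratio of -1.38. The 10 replacement genes summed to 429, 472, 355 and 330 FPKM in irradiated libraries and 414, 331, 367 and 375 FPKM in nonirradiated libraries, which overlapped (log2 ratio 0.09). H3f3b makes up much of that sum: the other 9 genes summed to 216, 268, 205 and 157 FPKM in irradiated and 265, 222, 244 and 245 FPKM in nonirradiated libraries (log2 ratio -0.21, overlapping). From estimated counts scaled to library totals, the log2 ratio of these 9 was -0.23 and the groups did not overlap. Replication-dependent genes thus made up 48.8 ± 5.61% of the summed histone FPKM in irradiated and 72.3 ± 4.28% in nonirradiated skin (SD, n = 4 each). These values include the row named Hist2h2bb, whose level may not be that of the histone gene. Without it the share was 37.8 ± 4.76% in irradiated and 63.7 ± 8.36% in nonirradiated skin (SD, n = 4 each). The log2 ratio of the replication-dependent sums without that row was -1.51. In bulk tissue, fewer cells of a type and less RNA per cell cannot be told apart.

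**Figure D1:**
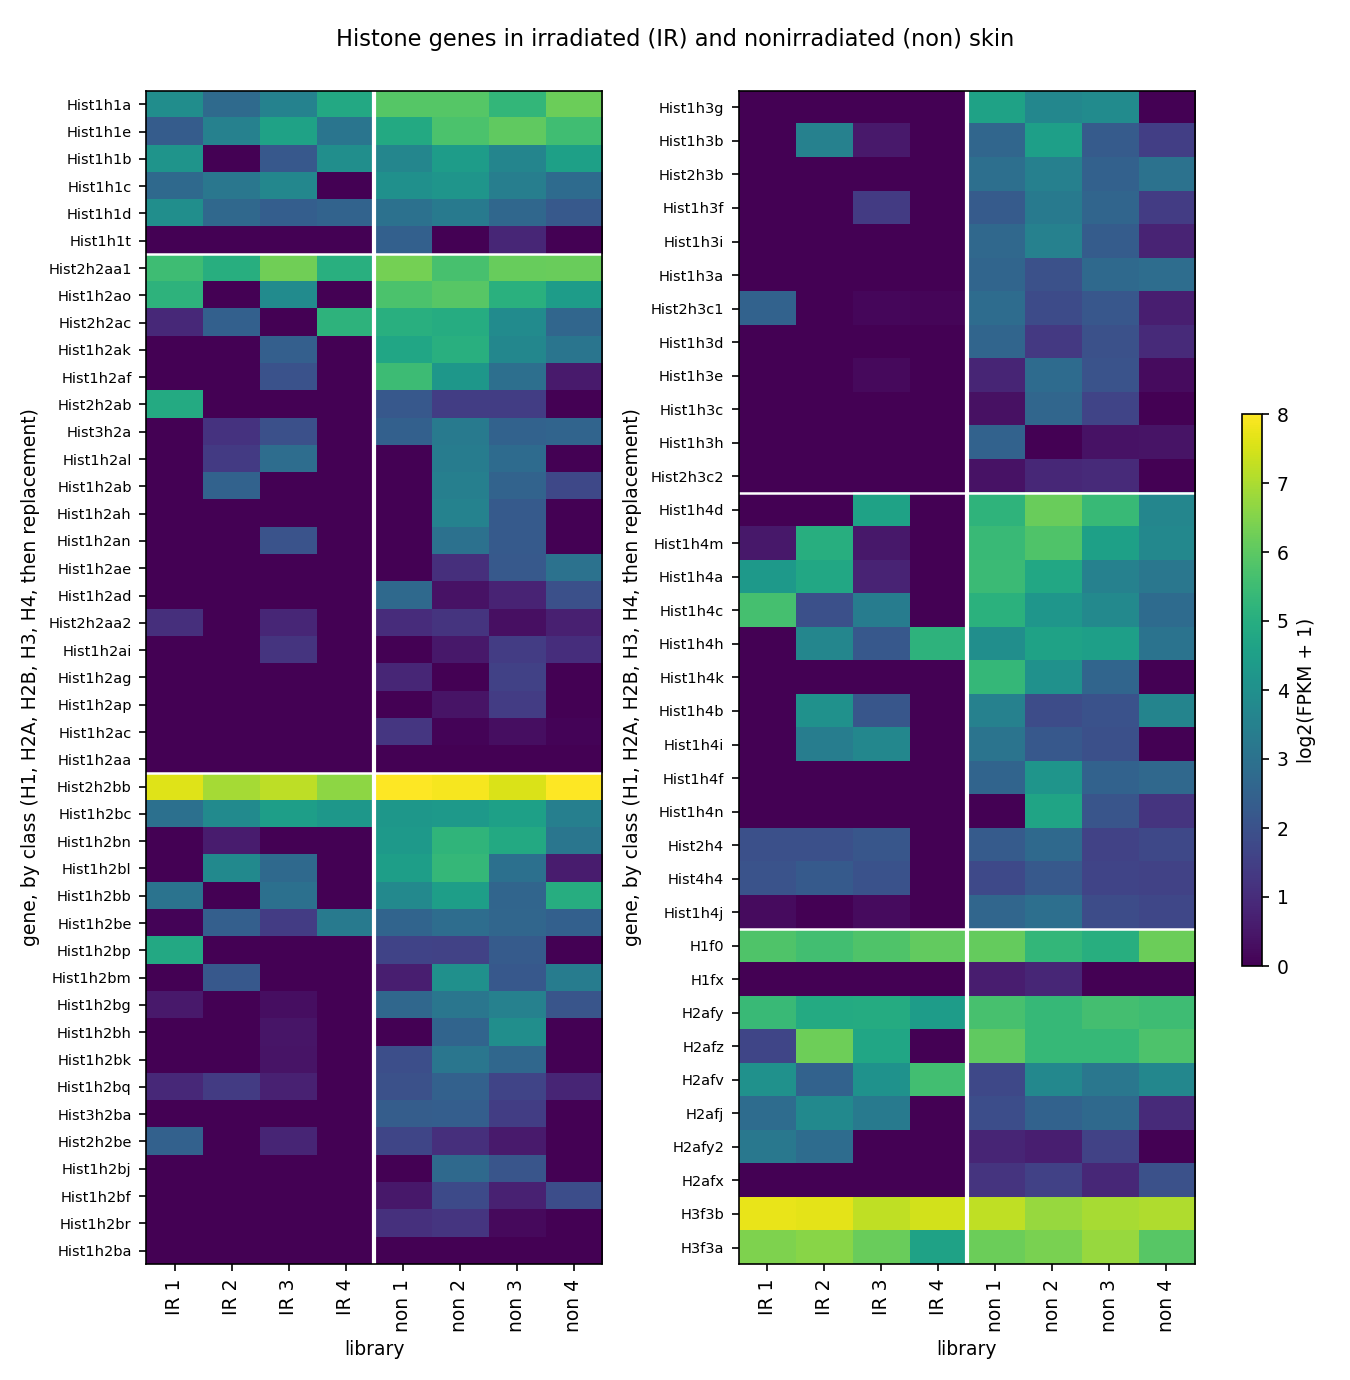
Levels of the 78 histone genes as log2(FPKM + 1), 1 row per gene and 1 column per library, with irradiated libraries (IR) left of nonirradiated ones (non) in each panel. Rows are grouped by class and, at the end of the right panel, the 10 replacement genes; the darkest cells are at or near 0, and they fill most of the irradiated H3 block, where 1, 1, 4 and 1 of 12 genes were detected.

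Member by member, 61 of the 68 replication-dependent genes had a lower mean in irradiated skin, 5 a higher one, and Hist1h2aa and Hist1h2ba, a pair known for expression in testis, were at 0 in all 8 libraries. Among all detected genes 51.5% had a lower mean. In 17 of the 68 every irradiated library lay below every nonirradiated one, against 4.36% of detected genes, and in none did every irradiated library lie above; among the tested, it was 16 of 61, against 4.48% of all tested genes. Another count is of genes seen in nonirradiated skin only: 22 of the 68 were at 0 in all irradiated libraries, against 12.1% of detected genes. The libraries detected 25, 25, 38 and 11 of the 68 genes in irradiated skin and 56, 63, 66 and 47 in nonirradiated skin. Over the whole table they detected 45.1, 51.4, 56.4 and 40.3% of genes in irradiated and 59.9, 63.4, 64.0 and 54.8% in nonirradiated skin. Detected in all 4 libraries were 7 members in irradiated and 42 in nonirradiated skin. The share of all genes seen in all 4 libraries was not counted, and the part of depth in these counts was not tested.

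The test across all genes was limma on log2(FPKM + 1) with Benjamini-Hochberg adjustment over 13324 genes, and it could take 61 of the 68 replication-dependent genes. It called 2 of them lower, Hist1h2bn and Hist2h3b, and 0 higher, where 0.128% of all tested genes were called lower and 0.12% higher (0.248% either way). At an unadjusted p under 0.05, 29 were lower and 0 higher, against 7.21% and 5.68% of all tested genes. The fitted log2 change was below 0 for 60 of the 61, with a median of -1.50 and quartiles at -2.16 and -0.84; over all tested genes 56.1% lay below 0 and the median was -0.11. A member that passed the filter on low values only through its nonirradiated level had to differ, so these counts describe the tested members and do not stand for all 68. Of the 61, 17 were at 0 in every irradiated library, where the fitted change depends on the pseudocount and is no bound. With those set to the bound that a floor of 3 fragments over the irradiated group allows, which lay below 0 for 2 of them, the median was -0.84. Members just above 0 in irradiated skin kept their fitted change in that median. Examples are Hist1h2bn and Hist1h2bg, at 1.05 and 2.80 estimated counts over the irradiated group. The median of -0.84 therefore still depends in part on the pseudocount. edgeR on the deposited counts called 0 of the 34 it could take, where it called 0.472% of all genes lower. DESeq2 called 11 of 62 lower, with 2.56% of all genes, and 0 higher.

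**Figure D2:**
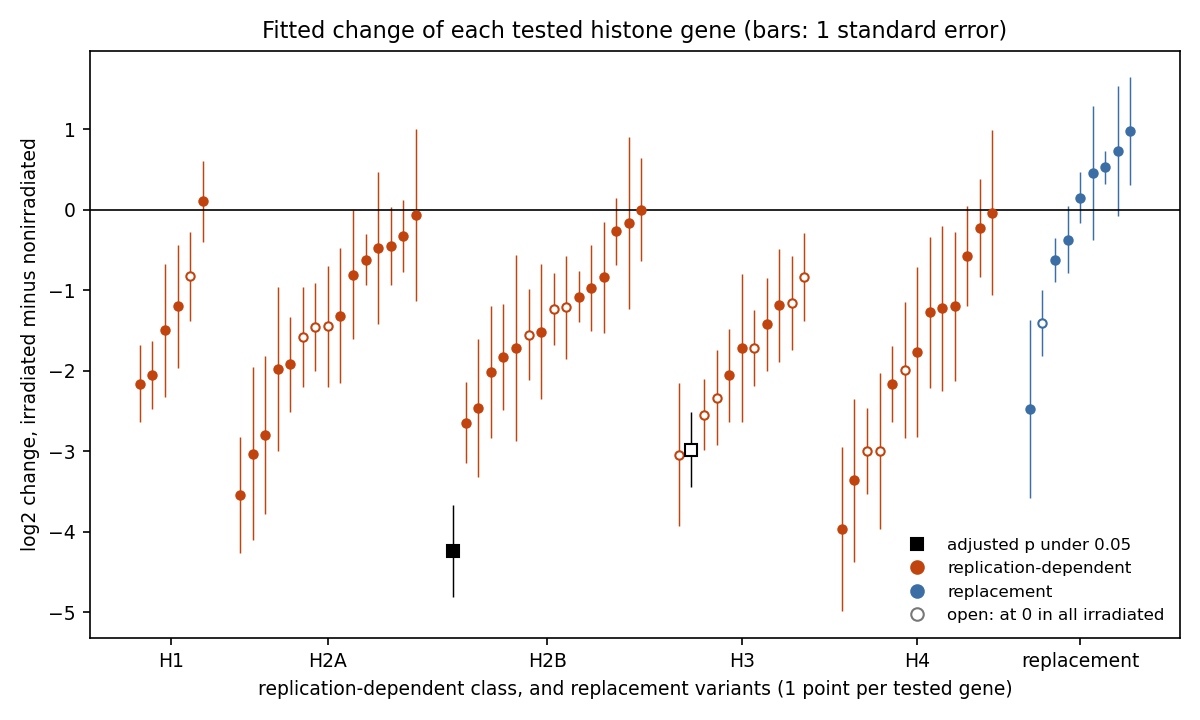
Fitted log2 change (irradiated minus nonirradiated, on log2(FPKM + 1)) of each of the 61 tested replication-dependent genes by class and of the 9 tested replacement genes, with bars of 1 standard error. Black squares are the called genes Hist1h2bn and Hist2h3b, and open symbols are genes at 0 in every irradiated library; 60 of 61 replication-dependent points lie below 0, while the replacement points spread on both sides.

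The linker histones summed to 55.0, 29.9, 54.1 and 54.6 FPKM in irradiated libraries 1 to 4, against 125, 156, 131 and 150 FPKM in nonirradiated libraries (log2 ratio -1.54), with no overlap. Hist1h1a, which encodes H1.1, stood at 14.1, 5.84, 10.8 and 27.6 FPKM in irradiated skin and at 58.9, 57.7, 38.7 and 72.3 FPKM in nonirradiated skin. Its groups did not overlap, with a log2 change of -2.05 (SE 0.42), and its limma adjusted p of 0.0827 missed the threshold. Hist1h1e, which encodes H1.4, was at 4.03, 10.4, 23.4 and 7.57 FPKM in irradiated against 28.1, 52.2, 64.9 and 45.9 FPKM in nonirradiated libraries, again without overlap (log2 change -2.16, SE 0.47, limma adjusted p = 0.0907). Hist1h1e overlaps Hist1h2be by 496 bp on the same strand, so reads of the 2 cannot be fully separated. DESeq2 called both of these H1 genes (adjusted p = 0.00687 and 0.0182). Hist1h1b, the gene of H1.5, overlapped between groups at 16.6, 0, 3.56 and 14.6 FPKM in irradiated and 11.6, 20.6, 11.5 and 22.3 FPKM in nonirradiated libraries (log2 change -1.50, SE 0.82). Hist1h1d, named after its values were seen, was the 1 tested replication-dependent gene above 0, at 7.32 ± 4.92 FPKM in irradiated and 6.21 ± 2.14 FPKM in nonirradiated skin (SD, n = 4 each, log2 change 0.10). Its row is annotated with 4884 bases past the stem-loop, and it was detected in all 8 libraries.

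The H2A genes summed to 110, 43.4, 112 and 67.1 FPKM in irradiated and 250, 240, 169 and 124 FPKM in nonirradiated libraries, without overlap (log2 ratio -1.24). Hist1h2ak was at 0, 0, 4.41 and 0 FPKM in irradiated libraries, against 25.8, 32.2, 12.1 and 7.58 FPKM in nonirradiated ones. Only the third irradiated library held it (log2 change -3.54, SE 0.72, limma adjusted p = 0.0786). Hist3h2a was at 0, 1.25, 2.86 and 0 FPKM against 4.46, 8.54, 4.66 and 4.97 FPKM in nonirradiated skin (log2 change -1.92, SE 0.59), but its annotated span overlaps Trim17 by 2146 bp on the same strand. Hist1h2af stood at 0, 0, 3.04 and 0 FPKM in irradiated and at 43.6, 17.6, 6.64 and 0.482 FPKM in nonirradiated libraries, and the groups overlapped. Hist2h2aa1, named after its values were seen as the H2A gene with the highest mean, had 46.0 ± 21.03 FPKM in irradiated and 67.6 ± 12.3 FPKM in nonirradiated skin (SD, n = 4 each); its identifier and that of Hist2h2aa2 are exchanged between the table and GENCODE M21, so the 2 names may be swapped. None of the 15 tested H2A genes was called by limma, edgeR or DESeq2. At an unadjusted limma p under 0.05, 6 were lower and 0 higher, against 7.21% and 5.68% of all tested genes. Of these 6, Hist1h2ad and Hist1h2ae were at 0 in every irradiated library, where the fitted change is no bound.

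H2B summed to 243, 155, 184 and 126 FPKM in irradiated and 449, 414, 299 and 516 FPKM in nonirradiated libraries (log2 ratio -1.24), and most of that was the row named Hist2h2bb. This row carries the identifier that GENCODE M21 gives to Gm42743, a longer gene on the same strand that covers Hist2h2bb (381 bp), so its level may not be that of the histone gene. It was at 195, 119, 146 and 99.7 FPKM in irradiated and 352, 234, 185 and 446 FPKM in nonirradiated libraries, where the highest irradiated library passed the lowest nonirradiated one (log2 change -1.08, SE 0.31, limma adjusted p = 0.180). Without it the H2B sum was 47.6, 36.1, 38.0 and 26.5 FPKM against 97.2, 180, 113 and 69.7 FPKM in nonirradiated skin (log2 ratio -1.63). Hist1h2bn (chromosome 13, 21754123 to 21754503) had the largest fitted fall of all members: 0, 0.512, 0 and 0 FPKM in irradiated libraries, against 18.6, 37.0, 27.8 and 7.80 FPKM in nonirradiated ones. It fell by 4.23 on the log2 scale (SE 0.57, limma adjusted p = 0.0182), from 1.05 estimated counts in the irradiated libraries together and 175 in the nonirradiated. That adjusted p ranged from 3.13e-04 to 0.195 over 19 other settings and was 0.124 with edgeR, 0.0916 without nonirradiated library 2 and 0.0842 without nonirradiated library 3. Each nonirradiated library held 15.4 to 69.7 estimated counts of Hist1h2bn. Those lie around the size of 1 fragment in an irradiated library (19 to 61 reads), so the size of its fall rests on few fragments. Hist1h2bg was at 0.468, 0, 0.227 and 0 FPKM in irradiated and 5.31, 7.79, 10.5 and 3.32 FPKM in nonirradiated libraries, with no overlap (log2 change -2.64, SE 0.51, limma adjusted p = 0.0652). With 13.4 to 41.8 estimated counts per nonirradiated library, the size of its fall also rests on few fragments.

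Hist1h2ak and Hist1h2bn are the head-to-head pair whose shared stretch is printed first above, and both genes were lower in every irradiated library than in any nonirradiated one. The same held for both genes of 1 other pair, Hist1h2bf and Hist1h2ad, which were at 0 in all irradiated libraries and at 0.426 to 2.70 and 0.299 to 5.599 FPKM in nonirradiated ones. Their nonirradiated libraries held 1.10 to 7.19 and 1.06 to 19.9 estimated counts. Those lie around or below the size of 1 fragment in an irradiated library (19 to 61 reads), so these zeros cannot be read as absence. In the pair with the octamer, Hist1h2ae was at 0 in all irradiated libraries and at 0, 1.13, 3.67 and 7.11 FPKM in nonirradiated ones, and Hist1h2bg had the values above. In 8 of the 10 pairs both genes had the lower mean in irradiated skin. The exceptions were the silent pair Hist1h2aa and Hist1h2ba, and Hist1h2an with Hist1h2bp, where Hist1h2bp was at 27.7, 0, 0 and 0 FPKM in irradiated and 2.08, 1.999, 3.87 and 0 FPKM in nonirradiated libraries.

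H3 showed the lowest level relative to nonirradiated skin of the 5 classes. The 12 replication-dependent H3 genes summed to 4.67, 10.5, 2.30 and 0.0757 FPKM in irradiated libraries 1 to 4, against 67.1, 81.8, 49.5 and 19.5 FPKM in nonirradiated libraries 1 to 4. No irradiated library reached the lowest nonirradiated one, and the ratio of means was 12.5-fold lower in irradiated skin (log2 ratio -3.64; -3.08 from estimated counts scaled to library totals). In terms of depth, the H3 reads of the 4 irradiated libraries amount to about 3.60 fragments in all, where the mean nonirradiated level would have given about 35.4; for all replication-dependent genes together it is about 211 fragments, where the mean nonirradiated level would have given about 486. The H3 genes of each irradiated library came down to 1 main gene: Hist2h3c1 at 4.67 FPKM in library 1, Hist1h3b at 10.5 FPKM in library 2 and Hist1h3f at 1.60 FPKM in library 3. The difference between classes was not tested.

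Hist2h3b (chromosome 3, 96268654 to 96269141) was at 0 in all irradiated libraries and at 6.65, 10.2, 4.55 and 7.08 FPKM in nonirradiated ones. It fell in limma (fitted log2 change -2.98, SE 0.46, adjusted p = 0.0312), from 13.1 to 28.5 estimated counts in each nonirradiated library. Those counts lie around or below the size of 1 fragment in an irradiated library (19 to 61 reads), so a level as in nonirradiated skin could have been missed there. Its adjusted p ranged from 0.0139 to 0.251 over 19 other settings, and passed in 8 of them; leaving out any single library except irradiated library 4 or nonirradiated library 1 ended the call (0.0556 to 0.151). Hist1h3a was also at 0 in all irradiated libraries and at 5.14, 2.97, 5.598 and 6.23 FPKM in nonirradiated ones (limma adjusted p = 0.0561). Hist1h3i was likewise at 0 in all irradiated libraries, and at 5.56, 10.3, 4.01 and 0.719 FPKM in nonirradiated skin (limma adjusted p = 0.134). Their nonirradiated libraries held 9.51 to 20.5 and 2.05 to 28.5 estimated counts, so their zeros cannot be read as absence either. An antisense gene lies across the whole of Hist2h3b on the opposite strand, and how counting used strand is not given. In all, 8 of the 12 H3 genes were undetected in every irradiated library and detected in nonirradiated skin (12.1% of detected genes), and in 6 of the 12 every irradiated library lay below every nonirradiated one (4.36% of detected genes).

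For H3.3, the replacement H3, levels in irradiated skin overlapped or lay above those in nonirradiated skin. H3f3b stood at 213, 205, 150 and 173 FPKM in irradiated libraries, against 149, 109, 124 and 130 FPKM in nonirradiated ones. All irradiated libraries were above all nonirradiated ones (log2 change 0.53, SE 0.21, unadjusted p = 0.0280, limma adjusted p = 0.321), a pattern that 3.99% of tested genes had. H3f3a was at 87.1, 95.2, 70.9 and 23.4 FPKM in irradiated and 73.5, 83.6, 108 and 59.6 FPKM in nonirradiated libraries, which overlapped (log2 change -0.37, SE 0.42; 0.08 without irradiated library 4). The 2 genes encode the same protein of 136 residues including the first methionine, and it differs from the protein of Hist2h3b at 4 residues and from that of Hist1h3a at 5. The replication-dependent share of H3 FPKM was 1.53, 3.37, 1.03 and 0.0384% in irradiated libraries, against 23.1, 29.9, 17.6 and 9.35% in nonirradiated ones. It averaged 1.49 ± 1.40% in irradiated and 19.99 ± 8.69% in nonirradiated skin (SD, n = 4 each).

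**Figure D3:**
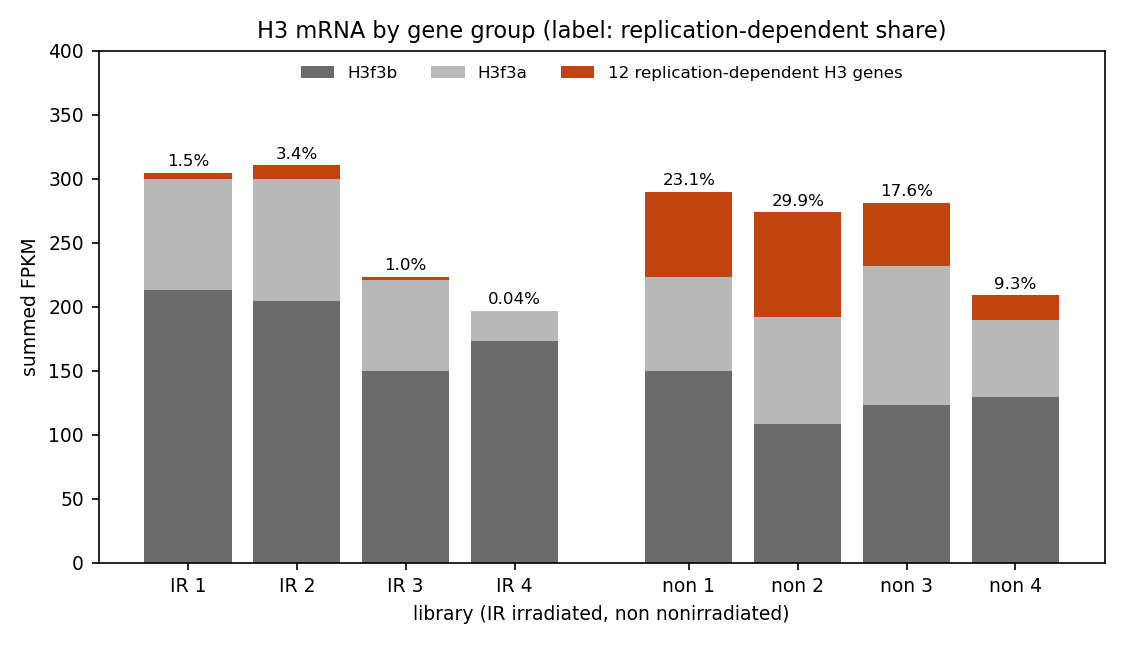
Summed FPKM of the H3 genes in each library, with H3f3b and H3f3a (H3.3) in greys and the 12 replication-dependent H3 genes in red; irradiated libraries (IR) are on the left, nonirradiated (non) on the right. The percentage over each bar is the replication-dependent share, at most 3.37% in irradiated and at least 9.35% in nonirradiated libraries.

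The H4 genes, all 13 of which encode 1 and the same protein, summed to 74.0, 104, 59.4 and 35.2 FPKM in irradiated and 241, 273, 134 and 70.0 FPKM in nonirradiated libraries (log2 ratio -1.40). Here the groups overlapped, because nonirradiated library 4 lay below irradiated libraries 1 and 2. Hist1h4f was at 0 in all irradiated libraries and at 5.01, 17.2, 4.72 and 5.48 FPKM in nonirradiated ones (limma adjusted p = 0.0566). Its nonirradiated libraries held 9.58 to 33.8 estimated counts. Those lie around or below the size of 1 fragment in an irradiated library (19 to 61 reads), so its zeros cannot be read as absence. Hist1h4j was at 0.175, 0, 0.168 and 0 FPKM in irradiated and 5.19, 6.58, 2.60 and 2.28 FPKM in nonirradiated libraries, without overlap (log2 change -2.16, SE 0.47, limma adjusted p = 0.0899). With 12.3 to 34.9 estimated counts per nonirradiated library, the size of its fall also rests on few fragments. Hist1h4d was at 0, 0, 23.2 and 0 FPKM against 35.9, 71.8, 40.8 and 11.9 FPKM in nonirradiated skin, and the third irradiated library passed the lowest nonirradiated one. Hist4h4, named after its values were seen as the only member of its cluster, averaged 2.49 ± 1.70 FPKM in irradiated and 2.54 ± 0.81 FPKM in nonirradiated skin (SD, n = 4 each).

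**Figure D4:**
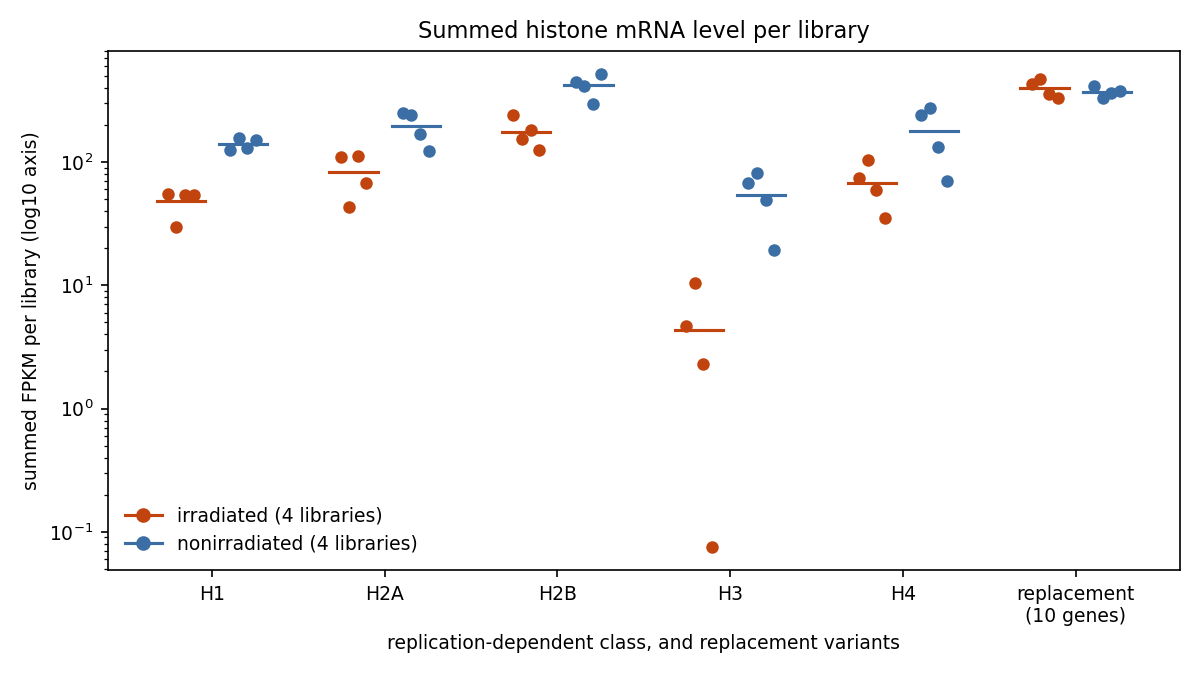
Summed FPKM per library on a log10 axis for the 5 replication-dependent classes and the 10 replacement genes, with irradiated libraries (red, left) beside nonirradiated ones (blue, right) and a bar at each group mean. The groups do not overlap for H1, H2A, H2B and H3, and overlap for H4 and for the replacement genes.

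Copies within a class are alike, and how reads shared by copies were assigned is not given, so single members are less certain than class sums. The 18 H2A members with a coding transcript encode 9 different proteins, the 18 H2B members 12, the 12 H3 members 3 and the 6 H1 members 6. Grouped by their annotated 3' end instead of by class, each group had the lower mean sum in irradiated skin. The 21 genes annotated to end within 60 bases of the stem-loop summed to 117, 113, 106 and 102 FPKM in irradiated and 271, 353, 211 and 191 FPKM in nonirradiated libraries (log2 ratio -1.23). The 23 genes annotated further past it had a log2 ratio of -1.53, and the 24 with no stem-loop in the annotation one of -1.40, each without overlap between groups in FPKM. Most of the sum of these 24 was the row named Hist2h2bb, whose level may not be that of the histone gene. It averaged 140 of 209 FPKM in irradiated and 304 of 551 FPKM in nonirradiated skin. In estimated counts scaled to library totals the groups of the 23 genes overlapped (log2 ratio -1.06).

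Outside H3, the replacement genes went different ways. None of the 9 tested replacement genes was called in limma. At an unadjusted p under 0.05, 3 were lower and 1 higher, against 7.21% and 5.68% of all tested genes. edgeR called 0 of 8. DESeq2 called H2afx and H2afy lower and H3f3b higher, where it called 2.56% of all genes lower and 2.4% higher. H2afx encodes H2A.X, which is phosphorylated around DNA breaks, and is the 1 replacement gene whose annotated transcript also holds the stem-loop. It was at 0 in all irradiated libraries and at 1.28, 1.94, 0.837 and 2.95 FPKM in nonirradiated ones (limma adjusted p = 0.180, DESeq2 adjusted p = 0.0279). The 8.71 to 30.8 estimated counts per nonirradiated library again lie around or below the size of 1 fragment in an irradiated library, so the zeros there cannot be read as absence. H2afy, which encodes macroH2A1, was at 42.1, 28.5, 29.5 and 20.3 FPKM in irradiated and 49.9, 40.0, 47.9 and 44.6 FPKM in nonirradiated libraries (log2 change -0.62, SE 0.27, limma adjusted p = 0.368, DESeq2 adjusted p = 0.0471). Only irradiated library 1 overlapped the nonirradiated group. H2afz was uneven in irradiated skin, at 2.16, 73.5, 25.7 and 0 FPKM, against 65.2, 40.2, 39.8 and 52.9 FPKM in nonirradiated skin (log2 change -2.47, SE 1.10, limma adjusted p = 0.381). The change rested on single libraries, at -1.42 without irradiated library 4, -3.50 without irradiated library 2 and -0.15 without irradiated libraries 1 and 4. H2afv, the second H2A.Z gene, was at 15.6, 4.72, 15.95 and 47.1 FPKM against 2.34, 12.3, 7.96 and 11.9 FPKM in nonirradiated libraries (log2 change 0.98, SE 0.67). H1f0, a linker variant associated with resting cells, overlapped between groups, at 55.5 ± 7.998 FPKM in irradiated and 52.6 ± 20.999 FPKM in nonirradiated skin (SD, n = 4 each, log2 change 0.15, but -0.15 after quantile normalization). H2afj averaged 6.90 ± 5.41 FPKM in irradiated and 3.49 ± 2.11 FPKM in nonirradiated skin (SD, n = 4 each). H2afy2, the gene of macroH2A2, averaged 3.55 ± 4.19 FPKM in irradiated and 0.839 ± 0.835 FPKM in nonirradiated skin (SD, n = 4 each). H1fx was at 0 in all irradiated libraries, at 0.567 and 0.815 FPKM in nonirradiated libraries 1 and 2 and at 0 in the others, and was not tested.

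Genes that make histone mRNA or handle histone proteins were read from 2 lists. Of the 29 genes for histone gene transcription and mRNA processing, 0 were called in limma, edgeR or DESeq2. In limma, 5 were lower and 1 higher at an unadjusted p under 0.05. Their median log2 change was -0.63, and 24 of 29 lay below 0, against a median of -0.11 and 56.1% below 0 over all tested genes. At an unadjusted p under 0.05, limma had 7.21% of all tested genes lower and 5.68% higher. Slbp itself was at 16.4, 68.3, 33.9 and 84.6 FPKM in irradiated and 112, 31.1, 23.1 and 81.1 FPKM in nonirradiated libraries, which overlapped widely (log2 change -0.25, SE 0.60; 0.19 without irradiated library 1). Npat, the coactivator of histone genes in S phase, was at 7.34, 8.58, 7.23 and 1.28 FPKM against 11.7, 9.46, 8.47 and 13.95 FPKM in nonirradiated skin (log2 change -0.91, SE 0.53, limma adjusted p = 0.509). Casp8ap2, a partner of Npat, was at 70.9 FPKM in irradiated library 2 and at 7.07 to 10.6 FPKM in the other irradiated libraries, against 12.7 to 27.5 FPKM in nonirradiated ones. Cpsf3, the endonuclease that cuts histone pre-mRNA, was at 4.19, 4.27, 3.58 and 0.734 FPKM in irradiated and 13.8, 8.85, 8.49 and 7.97 FPKM in nonirradiated libraries, without overlap (log2 change -1.46, SE 0.52, limma adjusted p = 0.273). Zfp473, which takes part in the same cleavage, was at 0 in 3 irradiated libraries and 0.330 FPKM in the third, against 0.815 to 3.05 FPKM in nonirradiated ones, and Cpsf1 was near 0 in 3 irradiated libraries and at 4.41 FPKM in the second, against 2.72 to 8.17 FPKM in nonirradiated ones.

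Of the 29 chaperone genes, 28 were tested, and limma called 0 (4 lower and 0 higher at an unadjusted p under 0.05), edgeR 1 and DESeq2 5, all lower. Of all genes, limma had 7.21% lower at an unadjusted p under 0.05, edgeR called 0.472% lower and DESeq2 2.56%. Hjurp, the chaperone of centromeric H3, was at 11.6, 13.7, 10.2 and 10.4 FPKM in irradiated libraries, against 25.1, 34.3, 33.4 and 45.4 FPKM in nonirradiated ones. The groups were far apart (log2 change -1.49, SE 0.29), the limma adjusted p was 0.0684, and edgeR passed it (log2 change -2.17, adjusted p = 0.0138). Srcap, which exchanges H2A.Z into nucleosomes, was at 20.3, 12.3, 24.7 and 21.4 FPKM in irradiated and 38.2, 34.5, 28.3 and 30.7 FPKM in nonirradiated libraries (log2 change -0.75, SE 0.29, limma adjusted p = 0.314, DESeq2 adjusted p = 0.0229). Asf1b, a chaperone that passes new H3 and H4 to replicating DNA, was at 0 in all irradiated libraries and at 0.196, 3.98, 1.79 and 1.81 FPKM in nonirradiated ones (limma adjusted p = 0.267, DESeq2 adjusted p = 0.0162). Its nonirradiated libraries held 1.10 to 56.0 estimated counts. Those lie around or below the size of 1 fragment in an irradiated library (19 to 61 reads), so its zeros cannot be read as absence.

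Cell type markers differed between the groups as well. Of all tested genes, limma called 0.128% lower and 0.12% higher, and 56.1% had a fitted change below 0. All 10 genes of cycling cells had a fitted change below 0 (median -1.06) and 1, Mki67, was called lower; their summed level was 96.8 to 306 FPKM in irradiated and 285 to 428 FPKM in nonirradiated libraries. The 7 hair follicle markers were Krt71, Krt28, Tchh, Dlx3, Msx2, Hoxc13 and Lef1. They summed to 405 to 727 FPKM in irradiated and 1272 to 1840 FPKM in nonirradiated libraries, mostly from Tchh. Of them, limma called 3 lower, Krt71, Krt28 and Tchh. The transcription factors Dlx3, Msx2, Hoxc13 and Lef1 were not called (limma adjusted p = 0.0829, 0.103, 0.280 and 0.0915). All 7 had a fitted change below 0. Skin markers (Krt5, Krt14, Krt10, Krt1, Col1a1, Col3a1) were detected in every library, at 1907 to 3359 FPKM in irradiated and 1330 to 1902 FPKM in nonirradiated libraries. Of the 10 skeletal muscle markers 9 had a fitted change above 0 (median 1.40) and 1, Myh1, was called higher (log2 change 3.37, limma adjusted p = 0.0208). The 10 summed to 3543 to 5602 FPKM in irradiated and 1190 to 4287 FPKM in nonirradiated libraries. The exception, Myh4, was lower in every irradiated library than in any nonirradiated one (log2 change -1.83, limma adjusted p = 0.0912, DESeq2 adjusted p = 6.03e-06). Leukocyte markers summed to 22.5 to 99.8 FPKM in irradiated and 37.3 to 48.1 FPKM in nonirradiated libraries, with Cd79a at 0 throughout. The part of these cells in the histone values was not tested.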

How the data were processed

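The RNA of 4 irradiated and 4 nonirradiated skin samples was measured by sequencing of ribosomal RNA-depleted libraries. The authors deposited FPKM values and estimated counts per gene and library in 1 table, per the file headers. The submitters' processing notes list HISAT2 2.0.4, cutadapt 1.9.3, Cuffdiff and Cufflinks and the build mm10, without saying what each did. Not given in the sources used here: the annotation, how shared reads were assigned and whether counting used strand. The members, lists and tests were chosen with earlier results of these data known. limma 3.58.1 (R 4.3.3, trend and robust) was fitted to log2(FPKM + 1) of the 13324 genes averaging 0.5 FPKM or more, with no covariate and Benjamini-Hochberg adjustment at 0.05; log2 changes understate low genes. edgeR 4.0.16 (quasi-likelihood) and DESeq2 1.42.0 on the deposited estimated counts, rounded to whole numbers, were alternatives. The fits were checked on simulated data. Sums over genes have no test.

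Named are every replacement gene, the 3 replication-dependent genes of each class with the smallest p, every called member, the 3 genes with the smallest p of each list, and Slbp, Npat and Casp8ap2. Gene positions are those of GENCODE M21, which matched 71 of 78 identifiers. The deposited counts are mostly whole multiples of a library-specific step: within 0.02 of a whole number for 92.6% to 96.6% of values. The size of 1 fragment assumes that genes seen in a single library were caught about once. One empty row was left out. Alternatives were another pseudocount, 2 filters, 2 scalings, both count tools, plain moderation, a replicate block and each library left out. Leaving out irradiated libraries 1 and 4 and leaving out Hist2h2bb were chosen after seeing the data.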

Additional observations from a re-analysis of the deposited data

Results flagged for a closer look

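Among 82 groups of 4 libraries screened, 11 held a library far from the other 3 by Dixon's criterion. Its chance rate of about 1 in 20 groups holds for normally distributed values. A group with 3 libraries at 0 and 1 above 0 is always marked, so the 11 cannot be set against that rate. Several of the 11 are libraries that held a gene the others of the group lacked. In irradiated library 3, Hist1h2ak was at 4.41 FPKM, Hist1h2af at 3.04 FPKM, Hist1h4d at 23.2 FPKM and Zfp473 at 0.330 FPKM, while the other irradiated libraries were at 0 for each. In irradiated library 2, Hist1h2bn was at 0.512 FPKM with the others at 0, Cpsf1 was at 4.41 FPKM with the others below 0.0001, and Casp8ap2 was at 70.9 FPKM with the others at 7.07 to 10.6 FPKM. The H1 sum of irradiated library 2 was 29.9 FPKM, against 54.1 to 55.0 FPKM in the other irradiated libraries. Among nonirradiated libraries, library 2 was high for Hist3h2a (8.54 FPKM, others 4.46 to 4.97) and Hist1h4f (17.2 FPKM, others 4.72 to 5.48), and library 1 for Cpsf3 (13.8 FPKM, others 7.97 to 8.85).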

How the results depend on the processing

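The summed FPKM of the replication-dependent genes kept its direction in all 13 alternatives run for it, with log2 ratios from -1.52 to -1.20, -1.51 without Hist2h2bb, -1.39 without irradiated libraries 1 and 4 and -1.26 to -1.52 with 1 library left out. Counts of called genes did not hold. Replication-dependent genes called lower (2) numbered 4 with a pseudocount of 0.1 FPKM, 0 with edgeR with or without a filter, 11 with DESeq2, 0 without irradiated libraries 1 and 4, and 0 to 4 with 1 library left out: 0 without nonirradiated library 2 or 3, 1 without irradiated library 1 and 4 without irradiated library 3. All genes called lower (17) numbered 26 with median ratio scaling, 58 with edgeR, 69 with edgeR without a filter, 365 with DESeq2, 6 without irradiated libraries 1 and 4, and 1 to 31 with 1 library left out. All genes called higher (16) numbered 73, 83 and 342 with the same 3 count fits, 3 without irradiated libraries 1 and 4, and 2 to 59 with 1 library left out. For replacement genes DESeq2 called 2 lower and 1 higher, against 0 in limma; for chaperones edgeR called 1 with or without a filter and DESeq2 5. The replacement sum without genes that share a protein, which drops both H3.3 genes, had a log2 ratio of -0.19. The cause was not tested.

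The labels do not say whether equal replicate numbers mark pairs. Same-numbered libraries correlated at 0.02, -0.01, 0.01 and 0.09 in their deviations from the group means. These values cannot decide it, because the spread between libraries can hide a shared mouse. With a replicate block 5 of all genes and 0 of the replication-dependent ones were called lower. Changes of sign were seen in 5 named genes. H1f0 was at -0.15 after quantile normalization, -0.013 with edgeR, -0.029 with edgeR without a filter and -0.062 to 0.33 with 1 library left out (lowest without nonirradiated library 3). H2afj was at -0.040 with the smaller pseudocount. H3f3a was at -0.65 after quantile normalization, ranged from -0.58 to 0.078 with 1 library left out (highest without irradiated library 4) and was at 0.050 without irradiated libraries 1 and 4. With 1 library left out, Slbp ranged from -0.62 to 0.19 (above 0 without irradiated library 1 and, at 0.13, without nonirradiated library 1). Casp8ap2 ranged likewise from -1.04 to 0.0070 (above 0 without irradiated library 1, at 0.0023, or 3) and was at 0.35 without irradiated libraries 1 and 4. Median ratio and quantile scaling moved the median of all genes by -0.10 and 0.14 on the log2 scale. Depth limits low genes most: levels under about 1 fragment per irradiated library cannot be read as absent.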
